A study of Mus musculus with 36 samples.

Results

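The genes described here are 10 immediate early and AP-1 genes: Fos, Fosb, Fosl2, Jun, Junb, Jund, Batf, Atf3, Ier2 and Ier3. They were taken by symbol from the array annotation, and of several probe sets for a gene the brightest on average over 36 arrays was used. All 10 were measured, of 18193 genes tested in all, and 3 of them (Fosl2, Jun and Jund) have a further probe set that served as a check. RNA came from mouse CD8 T cells of the OT-I line, whose T cell receptor recognises an ovalbumin peptide. The cells had received a short hairpin RNA and were transferred into mice carrying B16, a melanoma cell line, and were later purified from spleen or tumor. The hairpin was directed against LacZ, a bacterial gene used as control, or against Alk, Arhgap5, Egr2, Ppp2r2d or Ptpn2, which makes 5 mouse targets. Each of the 6 transductions has 3 arrays labelled spleen and 3 labelled tumor, which gives 12 groups and 18 arrays per label, and the study asked which genes control how many T cells are found in tumors relative to spleens. OT-I cells, transduction, transfer and tumor-bearing hosts are common to all groups, LacZ included. The sources used here give no age or strain of the hosts, no time after transfer and no number of hairpins per gene.

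AP-1 is a dimer of basic leucine zipper proteins. Fos proteins pair with Jun proteins, Batf pairs with Jun proteins and binds DNA beside interferon regulatory factors, and Atf3 belongs to the related ATF and CREB branch. In T cells, receptor stimulation raises Fos and Jun transcripts within minutes through MAP kinases, and the proteins bind together with NFAT at cytokine genes. Such transcripts are short-lived. Ier2 encodes a small nuclear protein and Ier3 a stress-inducible survival protein whose gene is a classical NF-kappaB target.

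The start-site regions of 5 of the genes are shown because their differences between labels were above 2-fold: Fos, Fosb, Jun and Junb were higher in arrays labelled tumor and Ier3 was lower. Ier2, which also differed by over 2-fold, has no entry in the set of RefSeq start-site sequences used. Each sequence holds the 250 bases before the RefSeq start site, 5′ to 3′ on the gene's strand, in build GRCm38.p6. The positions are chr12:85473640-85473889 (+ strand) for Fos, chr7:19310046-19310295 (- strand) for Fosb, chr4:95052223-95052472 (- strand) for Jun, chr8:84978749-84978998 (- strand) for Junb and chr17:35821463-35821712 (+ strand) for Ier3. Capitals mark the motif matches described next.
Fos: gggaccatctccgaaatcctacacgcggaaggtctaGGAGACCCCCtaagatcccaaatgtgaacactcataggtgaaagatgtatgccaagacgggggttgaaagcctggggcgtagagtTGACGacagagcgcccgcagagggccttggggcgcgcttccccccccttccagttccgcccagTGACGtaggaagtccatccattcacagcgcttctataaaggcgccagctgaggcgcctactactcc
Fosb: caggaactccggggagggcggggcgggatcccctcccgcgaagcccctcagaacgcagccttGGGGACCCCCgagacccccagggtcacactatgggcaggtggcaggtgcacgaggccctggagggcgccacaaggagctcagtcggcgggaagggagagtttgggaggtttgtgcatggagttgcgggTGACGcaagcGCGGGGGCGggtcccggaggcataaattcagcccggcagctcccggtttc
Jun: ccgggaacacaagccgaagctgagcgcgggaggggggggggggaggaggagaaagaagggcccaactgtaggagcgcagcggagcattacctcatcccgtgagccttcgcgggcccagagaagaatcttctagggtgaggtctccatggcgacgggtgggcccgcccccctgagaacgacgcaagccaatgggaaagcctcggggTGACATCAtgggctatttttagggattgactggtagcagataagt
Junb: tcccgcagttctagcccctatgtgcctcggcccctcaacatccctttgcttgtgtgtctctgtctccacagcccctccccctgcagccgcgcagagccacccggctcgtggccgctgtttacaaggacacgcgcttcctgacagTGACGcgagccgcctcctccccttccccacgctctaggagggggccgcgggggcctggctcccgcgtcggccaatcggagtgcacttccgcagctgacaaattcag
Ier3: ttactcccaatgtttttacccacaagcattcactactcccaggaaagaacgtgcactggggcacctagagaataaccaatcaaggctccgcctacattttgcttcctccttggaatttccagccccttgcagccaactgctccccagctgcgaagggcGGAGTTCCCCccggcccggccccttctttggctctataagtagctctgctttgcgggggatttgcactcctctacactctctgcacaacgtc

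Motifs were searched on both strands in windows of 300 bases, 250 before and 50 after the start. The search covered the 9 genes with an entry in the set of start-site sequences and all 32851 windows of that set. The core of the cyclic AMP response element, TGACG, occurred in Fos at -129 and -66, in Fosb at -60, in Junb at -106, in Batf at -98 and in Atf3 at -7, and in 20.8% of all windows. The full element TGACGTCA (1.79% of windows), the AP-1 consensus TGACTCA (5.2%) and the serum response CArG box (1.63%) were found in none of the 9 windows. The AP-1 variant TGACATCA was found in Jun, and in 3.62% of windows. An EGR site, GCGNGGGCG, was found in Fosb and Fosl2 (5.55% of windows), and a kappaB site in Fos, Fosb, Fosl2 and Ier3 (4.51% of windows). In the RefSeq gene order Fos and Batf lie on chromosome 12 with 1 protein-coding gene between them, and Ier2 and Junb lie on chromosome 8 with 17. A match is a run of letters and was not tied to any value measured here.

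The identity and quality of the arrays bear on every comparison. T cell genes (9 measured) were high under both labels: the log2 of their summed linear values lay between 9.20 and 10.1 in arrays labelled spleen and between 8.84 and 10.3 in those labelled tumor. Pigment cell genes summed to 6.58 to 8.27 in arrays labelled spleen and 2.82 to 4.21 in those labelled tumor, and 9 of 10 were called lower in the latter. Macrophage genes summed to 5.84 to 8.52 against 2.34 to 3.58 (11 of 11 lower), and B cell genes to 4.03 to 4.95 against 4.93 to 6.39 (7 of 7 higher). Neutrophil genes summed to 0.61 to 2.11 against 0.06 to 4.24 (4 of 7 higher), and stromal and endothelial genes to 3.25 to 4.90 against 2.72 to 3.82 (2 of 8 higher, 3 lower). B16 makes pigment, so the pigment genes run against the tissue labels. The arrays are therefore called labelled spleen and labelled tumor, and each direction below is that of the labels. The part of these other cells in the differences was not tested, and in bulk RNA fewer cells of a type and less RNA per cell cannot be told apart. Ptpn2 array 1 labelled tumor stood apart: its best correlation with another array was 0.905, where the remaining 35 reached 0.968 to 0.994. The 3' probe set of Gapdh exceeded the 5' one by 2.94 on the log2 scale there and by 0.25 to 1.39 elsewhere. In LacZ arrays labelled spleen the best correlations were 0.968 to 0.975 and the Gapdh differences 0.83 to 1.39, against 0.988 to 0.993 and 0.25 to 0.83 in the other 15 arrays labelled spleen. Of the 5 targeted genes only Ppp2r2d was called lower with its hairpin, in arrays labelled spleen (-1.37 ± 0.42, limma adjusted p = 0.0286), a call lost without array 1 (-1.12) or 2 (-1.29) of LacZ or array 1 (-1.22), 2 (-1.40) or 3 (-1.50) of the hairpin. Its difference in arrays labelled tumor was -0.12 ± 0.42 (adjusted p = 0.902).

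Values are the deposited log2 values, whose centring is unknown, so a level is compared between arrays and never between genes. A difference is labelled tumor minus labelled spleen, from 1 limma fit over 36 arrays, with its SE, and it is called when its Benjamini-Hochberg adjusted p over all 18193 genes lies under 0.05. The labels do not say whether arrays of a group represent separate animals, so the spread that each p rests on may be technical.

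Fos, Fosb, Jun, Junb and Ier2 were higher in arrays labelled tumor on average over the 6 transductions, as was the probe set used for Fosl2, whose other set was lower. Batf and Ier3 were lower, and Jund and Atf3 were not called. These 6 rises, Fosl2 included, and 2 falls among 10 genes stand beside 37.6% of all genes called higher and 33.1% called lower, so the counts by themselves do not set the genes apart. The median difference over the 10 genes was 0.76 and that over all genes 0.13. Without LacZ in the average, 8 genes were again called, a count given without the share of all genes in that fit.

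**Figure D1:**
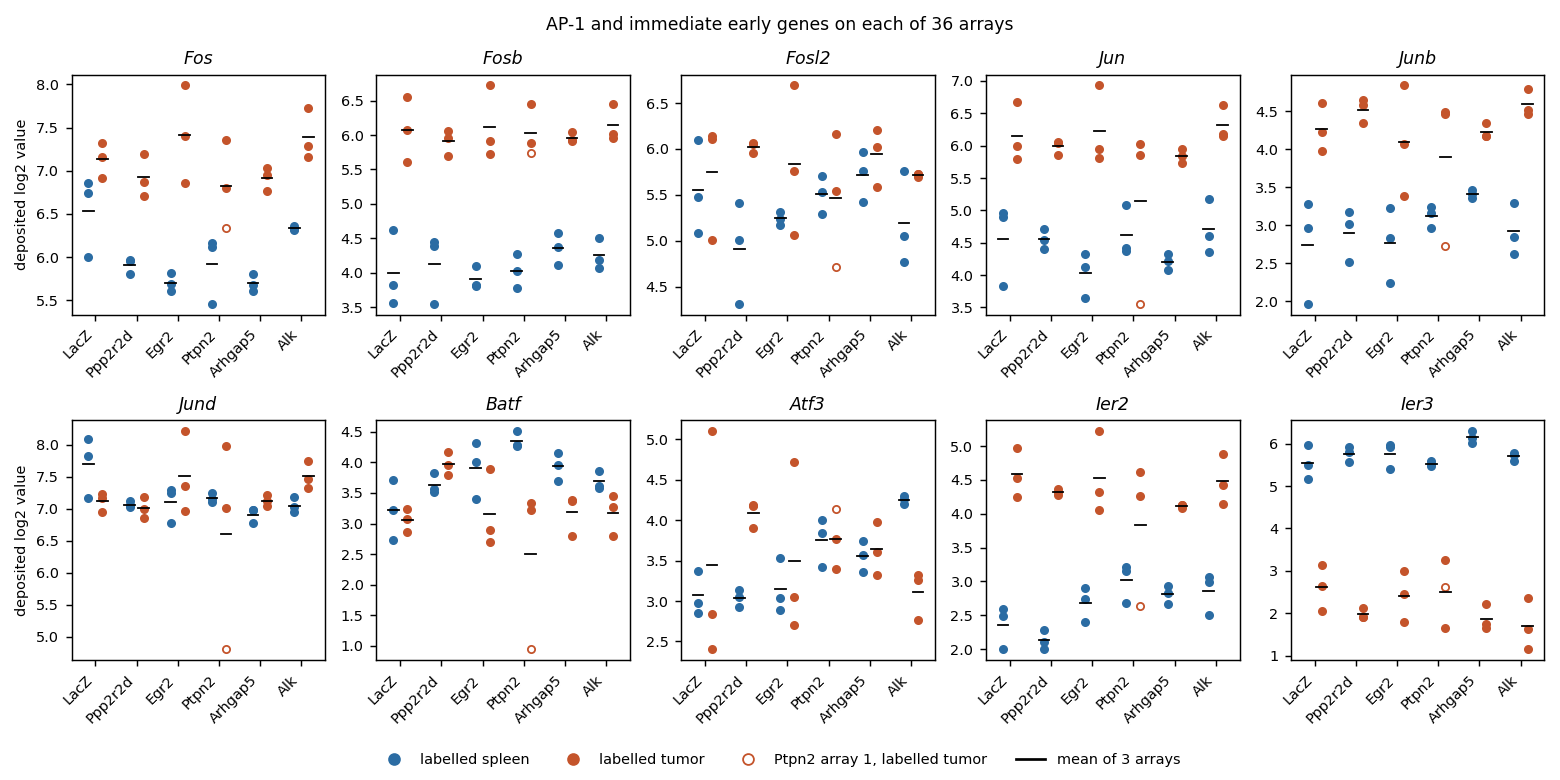
Deposited log2 values of the 10 genes on each of the 36 arrays, by transduction (x axis), with blue points for arrays labelled spleen, orange points for arrays labelled tumor, an open circle for Ptpn2 array 1 labelled tumor, and a black line for the mean of 3 arrays. The 18 Fosb values labelled tumor (5.60 to 6.72) all lie above the 18 labelled spleen (3.55 to 4.62), and the 18 Ier3 values labelled tumor (1.15 to 3.26) all lie below those labelled spleen (5.16 to 6.29).

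Within single transductions the calls were fewer. In LacZ arrays 4 genes were called higher (6.31% of all genes) and 1 lower (18.9%). With the Ppp2r2d hairpin 6 were called higher (8.1%) and 1 lower (14.5%), and with the Egr2 hairpin 5 higher (10.5%) and 1 lower (15.9%). With the Ptpn2 hairpin 3 were called higher (24.1%) and 2 lower (25.1%). With the Arhgap5 hairpin 4 were called higher (10.7%) and 1 lower (21.6%), and with the Alk hairpin 5 higher (33.2%) and 2 lower (20%). With the Ptpn2 hairpin the share of rises lay near that of all genes. The falls came down to Ier3, with Batf or Atf3 added once each. The median difference of all genes ranged from -0.48 in LacZ to 0.34 with the Alk hairpin, and all 35 calls among the 60 pairs of gene and transduction kept their sign after that median was subtracted. Without Ptpn2 array 1 labelled tumor, 40 pairs were called, and all of the 35 remained. The share of all genes called in that fit is not given here, so the higher count does not set the genes apart.

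**Figure D2:**
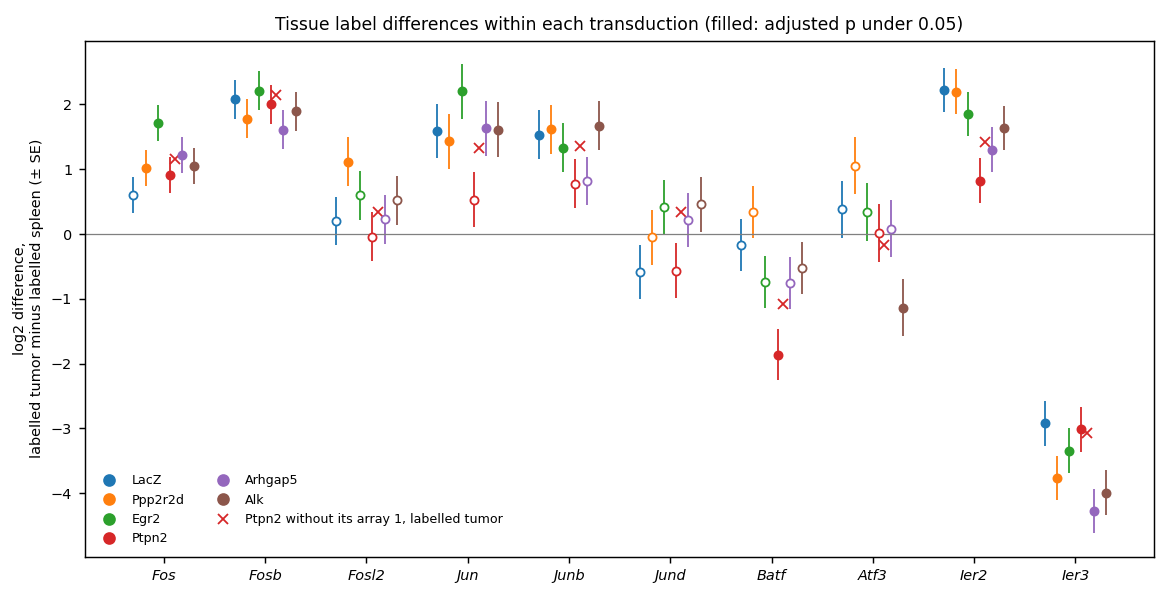
Log2 difference, labelled tumor minus labelled spleen (y axis, points with bars of 1 SE), of each gene (x axis) in each of the 6 transductions (colours), filled where the adjusted p is under 0.05, with red crosses for Ptpn2 without its array 1 labelled tumor. Fosb and Ier2 lie above 0 and filled in all 6, Ier3 lies between -4.28 and -2.92, and Jund points scatter around 0 with none filled.

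Fosb, a Fos family subunit induced together with Fos, separated the labels completely. Its lowest, median and highest values were 3.55, 4.10 and 4.62 in arrays labelled spleen and 5.60, 5.96 and 6.72 in arrays labelled tumor. All 18 arrays labelled tumor lay above all 18 labelled spleen, as was the case for 1.35% of genes. The average difference was 1.93 ± 0.12 (3.81-fold; limma adjusted p = 7e-15). It was called higher in all 6 transductions, as were 2.39% of genes, with differences from 1.61 (Arhgap5) to 2.21 (Egr2). In LacZ arrays the values were 3.82, 4.62 and 3.55 labelled spleen and 5.60, 6.08 and 6.55 labelled tumor. Group means stayed close together within a label, with an SD over the 6 of 0.17 labelled spleen and 0.09 labelled tumor.

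Fos, the founding member of the family, was higher in arrays labelled tumor in all 6 transductions and was called in 5. It read 5.46, 5.96 and 6.86 (lowest, median, highest) labelled spleen and 6.33, 7.10 and 7.99 labelled tumor, so the labels overlap over all arrays, while within each of the 6 transductions they do not. Such separation within a transduction was common, holding for 27.2% (LacZ), 48.9% (Ppp2r2d), 34.7% (Egr2), 47.5% (Ptpn2), 62% (Arhgap5) and 70.6% (Alk) of all genes. The average difference was 1.08 ± 0.11 (2.12-fold; limma adjusted p = 8e-10). The largest was 1.71 ± 0.28 with the Egr2 hairpin, whose arrays read 5.61, 5.82 and 5.69 against 7.40, 7.99 and 6.86. LacZ arrays, the transduction without a call, read 6.74, 6.86 and 6.00 against 6.91, 7.33 and 7.16. LacZ arrays 1 and 2 labelled spleen were thus the highest of their label, while array 3 lay near the label's median. The call with the Ptpn2 hairpin (0.91 ± 0.28; adjusted p = 0.0095) was lost without its array 2 labelled spleen (0.68) or array 3 labelled tumor (0.65).

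Fosl2, the gene of the Fos-related protein Fra-2, gave opposite directions with its 2 probe sets. The set used (1437247_at) read 4.31, 5.36 and 6.09 labelled spleen and 4.71, 5.86 and 6.69 labelled tumor, an average difference of 0.44 ± 0.15 (limma adjusted p = 0.0135). The other set (1422931_at) read 2.89, 3.66 and 4.61 against -0.14, 1.57 and 3.22, an average difference of -1.99 (adjusted p = 2.64e-10 over all probe sets), and was called lower in 5 of 6 transductions. No direction for Fosl2 as a gene follows from these data. The 1 call of the set used, with the Ppp2r2d hairpin (1.11 ± 0.38; adjusted p = 0.0292), came from arrays at 5.00, 4.31 and 5.41 against 6.06, 5.96 and 6.05. It was lost when array 1 (1.16) or 2 (0.82) labelled spleen, or array 1 (1.10), 2 (1.15) or 3 (1.10) labelled tumor of that hairpin was left out.

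**Figure D3:**
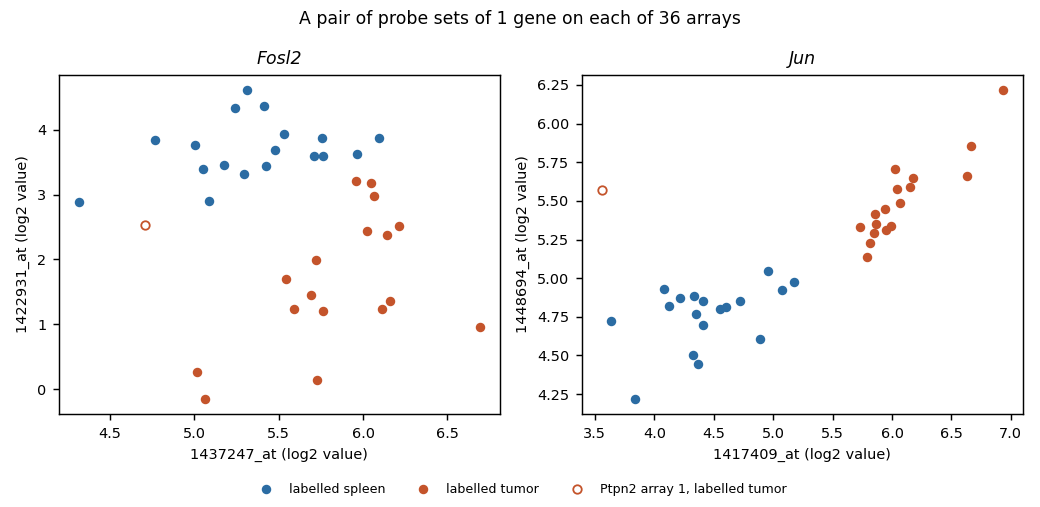
Log2 values of the probe set used (x axis) and the other probe set (y axis) of Fosl2 (left) and Jun (right), 1 point per array, blue for labelled spleen and orange for labelled tumor, with an open circle for Ptpn2 array 1 labelled tumor. For Fosl2 most orange points lie lower on the y axis while their x values overlap with the blue ones; for Jun they lie higher on both axes, except the open circle at 3.56 on the x axis and 5.57 on the y axis.

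Jun, the main transactivating partner of Fos, read 3.64, 4.39 and 5.17 (lowest, median, highest) labelled spleen and 3.56, 5.97 and 6.93 labelled tumor. In 17 of 18 arrays labelled tumor it exceeded every array labelled spleen, the other being Ptpn2 array 1. Without that array the lowest value labelled tumor was 5.73 and the labels did not overlap. How many of all genes separate without that array was not counted. The average difference was 1.50 ± 0.17 (2.82-fold; limma adjusted p = 5.27e-09), and it was called in 5 transductions, all but Ptpn2. Ptpn2 arrays labelled tumor read 3.56, 5.86 and 6.02, and without array 1 the difference was 1.32 ± 0.34 (adjusted p = 0.00392). The second probe set (1448694_at) read 4.22, 4.82 and 5.05 against 5.14, 5.47 and 6.22 with no overlap, an average difference of 0.75 (adjusted p = 1.19e-07 over all probe sets). By the sets used for each gene, 1.35% of genes had all 18 arrays labelled tumor above all 18 labelled spleen. In Ptpn2 array 1 labelled tumor the second set of Jun stood at 5.57, within the range of the other arrays of its label. It was called in 5 transductions too, all but Arhgap5 (0.46; adjusted p = 0.160).

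Junb, a Jun paralog that activates less strongly and is itself receptor-induced, was higher in arrays labelled tumor by 1.29 ± 0.15 (2.44-fold; limma adjusted p = 1.26e-08). It read 1.97, 3.09 and 3.46 labelled spleen and 2.72, 4.40 and 4.84 labelled tumor, with 16 of 18 arrays labelled tumor above all labelled spleen. The exceptions were Ptpn2 array 1 at 2.72 and Egr2 array 1 at 3.39. It was called with LacZ and with the Ppp2r2d, Egr2 and Alk hairpins. The Egr2 call (1.33) was lost without its array 3 labelled spleen (1.07; adjusted p = 0.0636) or array 2 labelled tumor (0.96; adjusted p = 0.0762). With the Ptpn2 hairpin it was called once array 1 was left out (1.36 ± 0.35; adjusted p = 0.0038).

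Jund, the Jun paralog that resting cells express, was the 1 Jun gene without a tissue call. It read 6.78, 7.12 and 8.10 labelled spleen and 4.80, 7.18 and 8.21 labelled tumor, with an average difference of -0.02 ± 0.17 (limma adjusted p = 0.92; 95% interval -0.37 to 0.33). The sign turned without LacZ array 2 labelled spleen (0.01), without Egr2 array 3 labelled tumor (0.03), without Ptpn2 array 1 labelled tumor (0.13), with cyclic loess (0.17) and with its other probe set (0.16). The highest group mean was that of LacZ labelled spleen, 7.70 ± 0.48 (SD, n = 3), and the lowest that of Ptpn2 labelled tumor, 6.60 ± 1.63, where array 1 read 4.80.

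Batf, which with Jun proteins and Irf4 supports effector differentiation of CD8 T cells, went the other way. It read 2.74, 3.76 and 4.51 labelled spleen and 0.94, 3.26 and 4.18 labelled tumor, an average difference of -0.62 ± 0.16 (limma adjusted p = 0.00154), and the labels overlap. The 1 call within a transduction was that of Ptpn2, -1.86 ± 0.40 (adjusted p = 0.000508), from 4.27, 4.29 and 4.51 against 0.94, 3.22 and 3.33. Without the array at 0.94 it was -1.08 ± 0.32 (adjusted p = 0.00991). The Ppp2r2d groups were the exception to the direction, at 3.63 ± 0.16 labelled spleen and 3.97 ± 0.20 labelled tumor (SD, n = 3), a pair that was not called.

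Atf3, a stress-induced repressor and activator, varied more between arrays than between labels. It read 2.85, 3.40 and 4.30 labelled spleen and 2.40, 3.51 and 5.10 labelled tumor, with an average difference of 0.12 ± 0.18 (limma adjusted p = 0.551) that turned to -0.02 without LacZ array 3 labelled tumor, the array at 5.10. In Alk arrays it was called lower, by -1.14 ± 0.44 (adjusted p = 0.0328), from 4.20, 4.26 and 4.30 against 2.77, 3.32 and 3.26. That call was lost without array 1 (-1.16), 2 (-1.13) or 3 (-1.11) labelled spleen, without array 1 labelled tumor (-0.96), and with quantile normalization (-0.88; adjusted p = 0.111) or cyclic loess (-0.92; adjusted p = 0.0837). The Ppp2r2d arrays read 3.05, 2.92 and 3.14 labelled spleen and 4.18, 3.91 and 4.19 labelled tumor, which do not overlap, as was the case for 48.9% of all genes in that comparison, and were not called.

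Ier2, the small nuclear protein gene, was higher in arrays labelled tumor. It read 2.00, 2.68 and 3.21 labelled spleen and 2.64, 4.30 and 5.22 labelled tumor, and 17 of 18 arrays labelled tumor lay above all labelled spleen. Without Ptpn2 array 1, at 2.64, the lowest value labelled tumor was 4.05 and none overlapped, a separation not counted over all genes. The average difference was 1.67 ± 0.14 (3.18-fold; limma adjusted p = 5.49e-12), and it was called higher in all 6 transductions, from 0.82 (Ptpn2) to 2.22 (LacZ). The Ptpn2 call (0.82 ± 0.34; adjusted p = 0.047) was lost without array 1 (0.89), 2 (0.66) or 3 (0.92) labelled spleen or array 2 (0.44) or 3 (0.61) labelled tumor, and was 1.42 ± 0.30 (adjusted p = 0.000493) without array 1 labelled tumor.

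Ier3 showed the largest difference of the 10 genes, and it went down. It read 5.16, 5.76 and 6.29 labelled spleen and 1.15, 2.09 and 3.26 labelled tumor, an average difference of -3.55 ± 0.14 (11.7-fold lower; limma adjusted p = 2.73e-20). All 18 arrays labelled tumor lay below all 18 labelled spleen, as was the case for 6.51% of genes, and it was called lower in all 6 transductions, as were 9.38% of genes. The smallest difference was that of LacZ (-2.92; 5.49, 5.98 and 5.16 against 3.14, 2.66 and 2.06) and the largest that of Arhgap5 (-4.28; 6.02, 6.14 and 6.29 against 1.65, 2.23 and 1.75). Ier3 and Ier2 thus lay on opposite sides in every transduction.

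RNA quality differed between labels and was set beside these results. The Gapdh 3' minus 5' difference was 0.25 to 0.83 in the 15 arrays labelled spleen outside LacZ and 0.86 to 1.14 in 17 arrays labelled tumor, without Ptpn2 array 1. In LacZ the ranges overlap, 0.83 to 1.39 labelled spleen and 0.91 to 1.14 labelled tumor. The best correlations in LacZ do not overlap, 0.968 to 0.975 labelled spleen and 0.983 to 0.988 labelled tumor. The part of RNA quality in the differences was not tested. In these LacZ arrays Fosb (2.08 ± 0.30; limma adjusted p = 2.79e-06), Jun (1.59 ± 0.42; 0.00477), Junb (1.53 ± 0.38; 0.00263) and Ier2 (2.22 ± 0.34; 7.81e-06) were higher and Ier3 (-2.92 ± 0.34; 6.23e-08) was lower labelled tumor. All 5 calls held when any 1 LacZ array was left out. Fos, called in the other 5 transductions, was not called in LacZ (0.60 ± 0.28; adjusted p = 0.116), nor were Fosl2, Jund, Batf and Atf3.

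No hairpin changed any of the 10 genes past the threshold against LacZ under either label. By limma, 0 of 50 pairs of gene and hairpin were called in arrays labelled spleen and 0 of 50 in arrays labelled tumor, with 6 and 5 pairs at an unadjusted p under 0.05. Of all genes, 12.8% (Ppp2r2d), 3.23% (Egr2), 9.58% (Ptpn2), 8.89% (Arhgap5) and 7.4% (Alk) were called in arrays labelled spleen, and 0.995%, 0.0275%, 0.764%, 0.368% and 0.0055% in arrays labelled tumor. The differences ranged from -0.84 to 1.18 labelled spleen and from -1.00 to 0.91 labelled tumor, with 95% intervals that extend 0.567 to 0.907 to either side. The 5 comparisons under a label share the LacZ arrays and are not independent. The median over all genes was -0.24 to -0.15 in the comparisons labelled spleen and 0.06 to 0.33 in those labelled tumor.

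Fos in arrays labelled spleen came nearest to a call. LacZ arrays read 6.74, 6.86 and 6.00, Arhgap5 arrays 5.61, 5.68 and 5.81 and Egr2 arrays 5.61, 5.82 and 5.69, so that neither hairpin overlaps with LacZ, as was the case for 31% (Arhgap5) and 19.9% (Egr2) of all genes. The differences were -0.84 ± 0.28 with Arhgap5 (limma adjusted p = 0.0547) and -0.83 ± 0.28 with Egr2 (adjusted p = 0.0868). When the LacZ array at 6.00 (array 3) was left out, both were called (-1.10 and -1.09; adjusted p = 0.0171 and 0.0351), and quantile normalization called both (-0.55 and -0.63; adjusted p = 0.0106 and 0.00684). The Arhgap5 difference was also called without Ptpn2 array 1 labelled tumor (adjusted p = 0.0386). The LacZ arrays that set both differences are the 3 that stood apart in correlation and Gapdh values, whose part was not tested. Against the same arrays Fos was also lower with Ppp2r2d (-0.62; limma adjusted p = 0.130), Ptpn2 (-0.62; 0.145) and Alk (-0.20; 0.670), none called. Set against the mean of the other hairpins, Fos differed by -0.27 ± 0.22 with Arhgap5 and -0.26 ± 0.22 with Egr2. Neither was called, and that reference was chosen after seeing the data.

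Batf and Atf3 had the largest positive differences from LacZ. Batf in arrays labelled spleen read 4.27, 4.29 and 4.51 with the Ptpn2 hairpin against 2.74, 3.70 and 3.23 in LacZ, 1.13 ± 0.40 (limma adjusted p = 0.0666), which was called without Ptpn2 array 1 labelled tumor in the fit (adjusted p = 0.0116). Atf3 in arrays labelled spleen read 4.20, 4.26 and 4.30 with the Alk hairpin against 2.98, 3.37 and 2.85, 1.18 ± 0.44 (adjusted p = 0.0954). Ier3 in arrays labelled tumor read 1.64, 1.15 and 2.35 with the Alk hairpin against 3.14, 2.66 and 2.06, -0.90 ± 0.34 (adjusted p = 0.123). Set against the mean of the other 4 hairpins instead of LacZ, a choice made after seeing the data, 1 pair labelled tumor was called, Batf with Ppp2r2d (4.18, 3.95 and 3.79; 0.97 ± 0.32; adjusted p = 0.0261), where 30.4% of all genes were called.

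**Figure D4:**
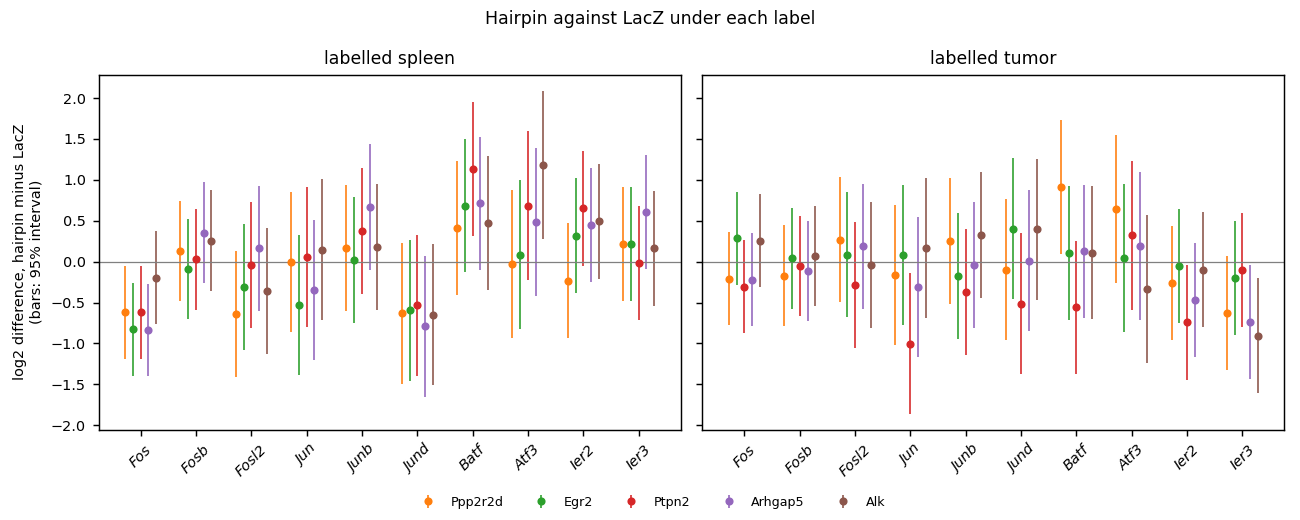
Log2 difference of each hairpin from LacZ (y axis, points with 95% intervals) for each gene (x axis) in arrays labelled spleen (left) and labelled tumor (right), with colours for the 5 hairpins. The differences lie between -0.84 and 1.18 on the left and between -1.00 and 0.91 on the right, and none passed the adjusted threshold.

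Moderated F tests over all 6 transductions made no call either: 0 of 10 genes in arrays labelled spleen (12.2% of all genes), 0 in arrays labelled tumor (11%) and 0 for a tissue difference that varies among transductions (9.1%), with 1, 1 and 3 genes at an unadjusted p under 0.05. The lowest limma adjusted p was 0.125 for Fos in arrays labelled spleen and 0.112 for Batf in arrays labelled tumor. For the tissue difference, limma adjusted p was 0.086 for Batf, 0.148 for Atf3 and 0.156 for Ier3. In the order of the 12 group means, neighbouring groups overlapped for nearly every step: 10 of 11 steps for Fosb, where the exception was the step between the labels, and 11 of 11 for Fosl2.

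The tissue difference of each hairpin was also set against that of LacZ. Calls, both negative, were made for 2 of the 10 genes with the Ptpn2 hairpin, where 17.3% of all genes were called either way and 2.22% lower, and for 0 with the other 4 hairpins (Ppp2r2d 0.786%, Egr2 0%, Arhgap5 2.82% and Alk 25.4% of all genes called either way). With those 4 hairpins 4 pairs had an unadjusted p under 0.05 and were not called: Fos with Egr2 (1.11; limma adjusted p = 0.177), Ier3 with Arhgap5 (-1.35; 0.112), and Atf3 (-1.51; 0.0746) and Ier3 (-1.07; 0.104) with Alk. Batf differed by -1.69 ± 0.57 (limma adjusted p = 0.0403) and Ier2 by -1.40 ± 0.49 (adjusted p = 0.0461). Both rest on Ptpn2 array 1 labelled tumor: without it they were -0.92 (adjusted p = 0.130) and -0.80 (adjusted p = 0.156). Leaving out single arrays of the 4 groups ended the Batf call in 8 of 12 fits (-2.11 to -0.92) and the Ier2 call in 9 of 12 (-1.78 to -0.80).

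Once the label means were removed, the 10 genes varied together unevenly. Over 36 arrays the 45 pairs had Pearson correlations from -0.12 to 0.82 with a median of 0.40. Those of Ier3 with the other genes lay between -0.10 and 0.16, and those of Atf3 between -0.12 and 0.40. In the 18 arrays labelled spleen alone, those of Ier3 lay between -0.15 (Fos) and 0.74 (Junb). Without Ptpn2 array 1 labelled tumor, the 45 pairs ran from -0.23 to 0.80 with a median of 0.35. Those of Atf3 then lay between 0.003 (Jund) and 0.55 (Ier2). Among 17 arrays labelled tumor without that array, Fos followed Jund (0.90) and Jun (0.80), and Fosb followed Jun (0.86). In arrays labelled spleen the same pairs stood at 0.71, 0.63 and 0.22. These correlations share array quality and are given as a description. The gene most like Fos over 36 arrays was Dusp1, a MAP kinase phosphatase that is itself an immediate early gene (r = 0.857, and 0.866 over 35 arrays), followed by Tubb5 (0.841) and B2m (0.832). Fosl2 was most like Errfi1 (0.821), Skil (0.802) and Birc3 (0.765), and Jund like Lcp1 (0.984), Ivns1abp (0.982) and Rps15 (0.973). Jun was most like Uqcrc2 (0.892), Trip12 (0.891) and Aifm1 (0.889), and Batf like Exosc2 (0.893), Serinc1 (0.891) and Exosc4 (0.889). Those values fell to between 0.724 and 0.736 for Jun and between 0.791 and 0.799 for Batf over 35 arrays. Junb was most like Fxr1 (0.848), Ier2 like Ctsd (0.877), Fosb like Usp32 (0.702), Ier3 like Swap70 (0.683) and Atf3 like Gpr137b-ps (0.690). Over 35 arrays Junb with Fxr1 fell to 0.791 and Ier2 with Ctsd to 0.781. The first-ranked gene then changed for all but Fosl2 and Ier3, to Cfl1 (0.870) for Fos, Hk1 (0.814) for Junb and Fut8 (0.843) for Ier2, among others.

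Of 26 other immediate early genes measured, 17 were called higher and 6 lower on average in arrays labelled tumor (all genes: 37.6% and 33.1%), with a median difference of 0.54 (all genes: 0.13). Sgk1, a serum-induced kinase, was higher by 1.29 ± 0.11 (limma adjusted p = 3.48e-12). Egr2 (-1.33 ± 0.22) and Egr3 (-1.49 ± 0.15), zinc finger factors induced by receptor signals through NFAT, and Phlda1 (-1.69 ± 0.14) were lower (adjusted p = 5.07e-06, 4.17e-10 and 2.43e-12). On average over the transductions, Fos, Fosb and Jun thus lay on the other side from Egr2 and Egr3. The Egr2 average includes arrays with the hairpin against Egr2, whose Egr2 means were 3.97 labelled spleen and 3.92 labelled tumor. With that hairpin Egr1, of the same family, was called higher in arrays labelled tumor (1.23 ± 0.29; limma adjusted p = 0.00152), as were 10.5% of all genes. The tissue difference with that hairpin was called different from that of LacZ for 0% of all genes. The Egr1 rise is thus not shown to be particular to that hairpin.

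Among 25 other measured leucine zipper factors that pair with AP-1 or are related to it, 6 were called higher and 13 lower (all genes: 37.6% and 33.1%), with a median of -0.44. Maff, a small Maf protein without a transactivation domain, was higher by 2.90 ± 0.19 (limma adjusted p = 2.37e-14). Cebpa, a myeloid factor, was lower (-3.19 ± 0.15; adjusted p = 2.39e-18), as were Jdp2, which pairs with Jun and represses AP-1 sites (-3.11 ± 0.17; adjusted p = 6.34e-17), and Crem (-2.07 ± 0.17; adjusted p = 3.27e-12). Against LacZ in arrays labelled spleen, Batf2, a paralog of Batf, was called higher with the Ptpn2 hairpin (1.84 ± 0.31; adjusted p = 0.000617). The call held without any 1 array of the comparison (1.58 to 1.99) and against the other 4 hairpins (1.09; adjusted p = 0.0149). Macrophage genes summed to 6.99 to 7.03 in the Ptpn2 arrays and to 5.84 to 6.53 in LacZ, and their part in this difference was not tested.

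Of 18 measured kinases and factors upstream of Fos and Jun, 5 were called higher and 8 lower (median -0.12), which lies near the shares of all genes (37.6% and 33.1%). Elk3, a ternary complex factor, was lower (-1.43 ± 0.12; limma adjusted p = 2.52e-12), and Rps6ka5, the kinase MSK1 that phosphorylates histone H3 and CREB at immediate early genes, was higher (1.37 ± 0.15; adjusted p = 2.41e-09), as was Map2k6, which activates p38 (1.09 ± 0.12; adjusted p = 2.58e-09). A list of AP-1 partners at composite elements held 6 genes: Irf4, Irf8, Nfatc1, Nfatc2, Nfatc3 and Nfatc2ip, which encodes an NFAT-interacting protein. Of these, 1 was called higher and 4 lower. Nfatc2 was higher (1.00 ± 0.11; adjusted p = 2.85e-09), while Nfatc1 (-1.00 ± 0.11; adjusted p = 3.92e-09), Irf4 (-0.59 ± 0.18; adjusted p = 0.00472) and Irf8 (-3.90 ± 0.11; adjusted p = 7.62e-24) were lower. Irf8 is also a myeloid factor, and like the macrophage genes it was lower in arrays labelled tumor. In arrays labelled spleen with the Alk hairpin, 10 of 11 macrophage genes were called higher than in LacZ, and 0 of these 6 genes. The difference of Irf8 in that comparison is not given here, and a missing call does not show that Irf8 was unchanged. The part of macrophages in the Irf8 difference was not tested.

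Of 17 measured genes with textbook AP-1 or NFAT with AP-1 sites, 1 was called higher, 11 lower and 5 neither way in arrays labelled tumor, with a median of -1.37, beside 37.6% of all genes called higher and 33.1% lower. The largest were Il3 (-5.03 ± 0.21; limma adjusted p = 7.91e-20), a T cell cytokine, Mt1 (-4.78 ± 0.15; adjusted p = 4.91e-23), a metallothionein, Hmox1 (-3.96 ± 0.16; adjusted p = 2.84e-20), heme oxygenase, and Il2ra (-3.77 ± 0.13; adjusted p = 2.22e-21), the IL-2 receptor alpha chain. Hmox1 and the metalloproteinases of the list are also made by macrophages, whose genes were lower in the same arrays. Csf2, which encodes GM-CSF and has composite NFAT and AP-1 sites, was called in 4 comparisons with LacZ. With the Arhgap5 hairpin in arrays labelled spleen it was higher by 1.83 ± 0.36 (adjusted p = 0.00249), also without any 1 array (1.64 to 2.11) and against the other 4 hairpins (1.76; adjusted p = 0.000491). With Ptpn2 it was lower in arrays labelled spleen (-1.50 ± 0.36; adjusted p = 0.01; lost without LacZ array 2, -1.22, or Ptpn2 array 2, -1.28) and in arrays labelled tumor (-1.91 ± 0.36; adjusted p = 0.00414; lost without LacZ array 3, -1.62, or Ptpn2 array 1, -1.54). With Ppp2r2d in arrays labelled spleen it was higher by 1.15 ± 0.36 (adjusted p = 0.0334), a call that 5 single arrays ended: LacZ array 1 (0.95) or 3 (1.07) and Ppp2r2d array 1 (1.10), 2 (1.26) or 3 (1.09). None of the 10 AP-1 and immediate early genes was called in these 4 comparisons.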

How the data were processed

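RNA from 36 samples was measured on single-channel Affymetrix whole-genome mouse arrays, with biotin labelling in 1 cycle per the labels' protocols. The authors deposited log2 values in a single table, made with RMA per the submitters' processing notes. Its settings and any build were not found in the labels, and the centring is unknown (array medians -0.48 to -0.23). Of 45101 probe sets, 34945 carry 1 symbol, 932 several, 9160 none and 64 are controls. Each of 18193 genes was represented by the set with the highest mean.

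limma 3.58.1 in R 4.3.3 (data.table, version 1.17.8) fitted 1 coefficient per group over all 36 arrays (24 residual and 6.75 prior degrees of freedom), giving 22 comparisons and 3 moderated F tests. Tests are two-sided, adjusted by Benjamini-Hochberg over all genes and called under 0.05. The procedure was tested on simulated data. The members, lists and tests were chosen with earlier results of these data known. Named genes are all members, up to 4 called genes of each other list and the 3 most alike genes. From that rule the text leaves out some, and Batf2, Csf2 and Ppp2r2d were selected for hairpins after their values were seen. Arrays of the same transduction and replicate number were fitted as unpaired (residual correlations of 18 pairs -0.24 to 0.24, 4 above 0.1). With 3 arrays a group these correlations cannot show whether the arrays were paired. Alternatives were all probe sets, a filter (above the 40th percentile in 3 arrays), quantile and cyclic loess normalization, array weights, a replicate block, fewer arrays and leaving out each array. Other reference groups were added after seeing the data. The number of arrays limits the precision. Start-site sequences are RefSeq's (GRCm38.p6). Ier2 has no entry among these sequences and is named only.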

Additional observations from a re-analysis of the deposited data

Results flagged for a closer look

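The tissue difference with the Ptpn2 hairpin differed from that of LacZ for 2 genes, by the interaction term of the limma fit. Batf fell further, by -1.69 ± 0.57 (adjusted p = 0.0403). Ier2 rose less, by -1.40 ± 0.49 (adjusted p = 0.0461). Ptpn2 array 1 labelled tumor, the array with the Gapdh difference of 2.94, read 0.94 for Batf and 2.64 for Ier2, against 3.22 and 3.33, and 4.61 and 4.26, in the other 2 arrays of its group. Without it the terms were -0.92 (adjusted p = 0.130) and -0.80 (adjusted p = 0.156).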

How the results depend on the processing

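The number of arrays, 3 a group, limits every comparison, and the spread between arrays may be technical. All 35 tissue calls within transductions kept their sign under each setting that refitted all arrays, and 33 (array weights) to 35 remained called. Members called in the Ptpn2 tissue comparison numbered 5, against 3 with array weights and 2 with only the arrays compared. Hairpin calls in arrays labelled spleen (0) became 1 with the mean of all probe sets, 1 with the filter, 2 with quantile normalization and 2 with array weights. Those in arrays labelled tumor (0) became 8 with array weights and 1 against the other 4 hairpins (Batf with Ppp2r2d, where 30.4% of all genes were called). Interaction calls (2, Batf and Ier2 with Ptpn2) numbered 0 with the filter, 1 with quantile normalization, 0 with cyclic loess and 6 with array weights. They numbered 1 with a replicate block by transduction and 0 with only the arrays compared. The call with quantile normalization was neither of these 2 (limma adjusted p = 0.0982 for Batf and 0.0953 for Ier2). With array weights the Batf term was not called (adjusted p = 0.0575). F test calls (0 each) in arrays labelled spleen became 1 with quantile normalization, 1 with cyclic loess and 1 with only the arrays compared. In arrays labelled tumor they became 1, 1 and, with array weights, 5, and for the tissue difference 2 with quantile normalization and 3 with array weights. The causes were not tested. Shares of all genes called are not given for the other settings, so these counts by themselves do not set the genes apart. A fixed replicate block kept 35 of 35 tissue calls and 2 interaction calls (Batf adjusted p = 0.0406, Ier2 0.0499), and a random block by transduction kept 34. Fosl2 turned from 0.44 to -0.78 with the mean of all probe sets and to -1.99 with set 1422931_at, and in the Ppp2r2d comparison from 1.11 to -0.55 with that set. Jund, near 0 on average, read 0.068 with the mean of all probe sets, 0.17 with cyclic loess, 0.16 with set 1440265_at, 0.01, 0.03 and 0.13 without LacZ array 2 labelled spleen, Egr2 array 3 or Ptpn2 array 1 labelled tumor, and 0.093 without LacZ in the average, and lay between -0.14 and 0.13 without single arrays. Atf3 read -0.016 on average without LacZ array 3 labelled tumor and up to 0.21 without other single arrays. Leaving out each array in turn, called members numbered 5 to 5 (LacZ), 8 to 8 (average), 6 to 7 (Ppp2r2d), 5 to 7 (Egr2), 3 to 7 (Ptpn2), 5 to 7 (Arhgap5) and 6 to 7 (Alk). Hairpin calls numbered 0 to 3 labelled spleen and 0 to 2 labelled tumor, interaction calls 0 to 3, and F test calls 0 to 1, 0 to 3 and 0 to 2.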
